A study of Mus musculus with 4 samples.

Results

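Homologous recombination, Fanconi and DNA damage checkpoint genes were read in a sorted mouse blood progenitor population before and after 5-fluorouracil (5FU), a drug toxic to cells that are making DNA. The group was a fixed list of 34 genes, taken by gene symbol and not by a threshold on measured values. The list was chosen with earlier results of these data known. A gene was read from the probe set (the short oligonucleotides on the array that report 1 transcript) that named that gene alone and had the highest mean over the 4 arrays. This gave 31 of the 34 genes, among 22180 genes measured in the same way. Fanca, Rad54b and Xrcc2 were not named by such a probe set and are not analysed here.

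Homologous recombination repairs a broken or stalled chromosome by copying the sister DNA molecule, so its genes serve cells that are replicating. Broken ends are found by the MRN complex and trimmed to single strands, BRCA1 and BRCA2 with their partners prepare those strands to search for the matching sequence, and helicases then resolve the joined molecules. The Fanconi proteins handle crosslinks between DNA strands: a core complex marks the FANCD2-FANCI pair with ubiquitin, and this pair calls in the recombination proteins. The kinases ATR and ATM report stalled forks and breaks to CHK1 and CHK2, which hold the cell cycle. Loss of Fanconi genes in humans causes bone marrow failure.

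The RNA came from LSK cells of the bone marrow, a sort gate (Lin-, Sca-1+, c-Kit+) that holds the blood stem cells and early progenitors, and the mice were 4-month-old C57/B6 males. There were 2 genotypes, Ctrl and AMKO, each with 1 array at day 0 (called Basal) and 1 array at day 8 after 150 mg/kg of 5FU. The labels do not expand AMKO and do not give the number of mice behind an array, so the name stands here as a genotype label, and no targeted gene could be read to check it. With 1 array per group no value below has a replicate error, and the number of arrays limits the precision. Values are the authors' deposited values, read as log2. The floor, under which a signal is treated as uncertain, was 5.475, the median of all values. Genes that reached it on any of the 4 arrays, 14061 in number, were kept.

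In the Ctrl 5FU array, 11 of 11 measured neutrophil markers were at or above the floor with a mean log2 value of 10.68, against 2 to 5 of 11 and means of 5.03 to 5.29 in the other arrays. B lineage markers reached the floor for 7 of 9 genes in that array and for 2 of 9 in each other array, and monocyte and macrophage markers for 7 of 9 against 2 to 4. Erythroid markers had a mean of 7.29 there against 6.03 to 6.08 elsewhere, and T cell markers 5.32 against 4.70 to 4.75. Xist, a transcript of female cells, was at 7.65 in the Ctrl 5FU array and at 3.97 to 4.41 in the others, although every sample is labelled male. In the Ctrl Basal array, 10 of 10 skeletal muscle markers were at or above the floor, with a mean of 8.39. Elsewhere 4 to 7 of 10 were, with means of 5.59 to 6.01. Among the 8 measured LSK and stem cell genes, values differed between Basal and 5FU in both genotypes and in opposite directions. Cd48, a surface protein of progenitors that stem cells lack, was at 4.99 and 5.15 at Basal, under the floor, and at 9.96 and 9.49 after 5FU in Ctrl and AMKO. Flt3, a receptor of multipotent progenitors, was higher after 5FU by 1.57 and 0.52, and Procr, a stem cell surface marker, was lower, with differences of -1.64 and -0.70. Kit, which encodes the c-Kit sort marker, had differences of -0.76 and -0.71 and lay between 11.08 and 11.87 on the 4 arrays, and Ly6a, which encodes Sca-1, had no probe set of its own. The part of these signals in the differences below was not tested. The comparison of 5FU with Basal in AMKO uses neither the Ctrl 5FU nor the Ctrl Basal array, but the differences in Cd48, Flt3, Procr and Kit are in it too. In bulk RNA, a change in the mix of cells and a change in RNA per cell cannot be told apart.

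How the genes differed between 5FU and Basal was read in each genotype. Most members were higher after 5FU in both genotypes: 25 of 31 in Ctrl and 26 of 31 in AMKO had the higher value at day 8, against 50.1% and 52.3% of all kept genes. The median log2 difference over the members was 0.43 in Ctrl and 0.66 in AMKO, against 0.01 and 0.03 over all kept genes. In Ctrl, 8 members were at least 2-fold higher, where 5.02% of all genes were, and in AMKO 6 members, where 4.69% were. No member was 2-fold lower in either genotype, where 4.46% and 3.55% of all genes were. At a size of 1.5-fold, 14 members in Ctrl and 18 in AMKO were higher, against 11.9% and 15.4% of all genes. At that size, 1 member was lower in each genotype, Fance in Ctrl and Fancg in AMKO, against 11.9% and 10.5%. With each array centred on its median, the AMKO counts became 8 members 2-fold higher, where 6.82% of all genes were, and 27 of 30 higher at all, where 62.5% were. The members at least 2-fold higher in both genotypes were Brca1, Rad51ap1 and Exo1, where 1.96% of all genes were. This set depended on the scaling: after quantile normalization Rad51ap1 was at 0.98 in AMKO and Bard1 took its place, and with centred arrays Bard1 and Rad51b joined the 3. At 3-fold, Brip1 and Rad51ap1 were higher in Ctrl, where 2.06% of all genes were, and Fancb in AMKO, where 0.974% were.

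Both 5FU arrays lay above both Basal arrays for 23 of the 31 members, against 32% of all kept genes, and below both for 4 members (Rad51d, Fancc, Fance and Fancg), against 27.7%. The arrays overlapped for Palb2, Rad51c, Atm and Atr. All 31 members passed the floor. Fancc did so only through the AMKO Basal array, so no direction is read from it, and Fancb was under it in the Ctrl Basal array, so the size of its difference is uncertain.

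**Figure D1:**
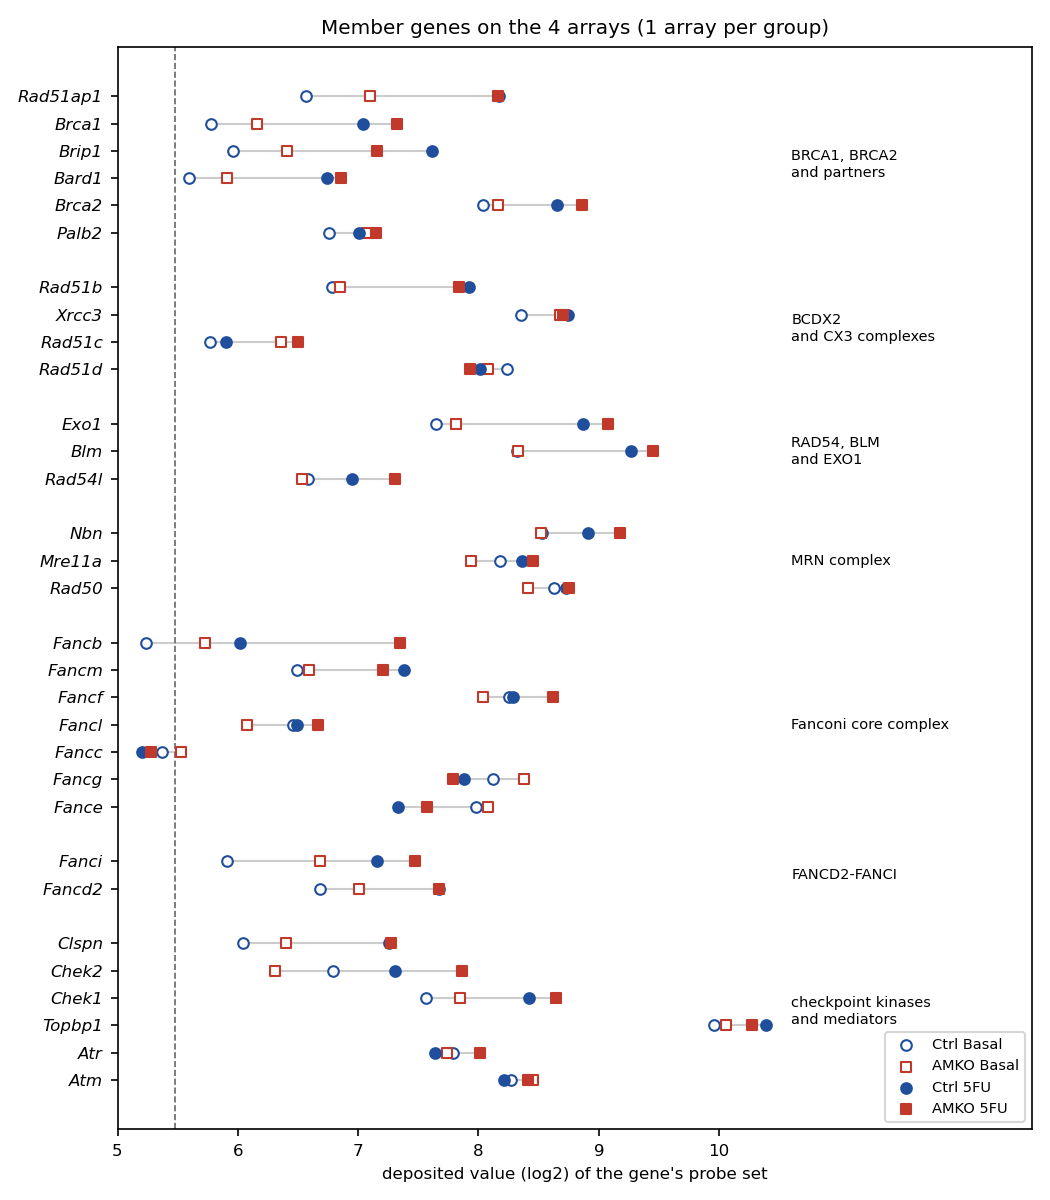
Deposited log2 value of each measured member on each array, with open symbols for Basal, filled symbols for 5FU, circles for Ctrl and squares for AMKO; the dashed line is the floor of 5.475 and the grey lines join the lowest and highest value of a gene. The filled symbols lie to the right of both open ones for 23 of 31 genes, while Fance and Fancg show the opposite order. Levels of different genes come from different probe sets and are not comparable.

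The BRCA1 and BRCA2 genes and their partners had the highest subgroup median in Ctrl, 1.21 on the log2 scale, with 0.85 in AMKO, and 6 of 6 were higher in both genotypes. Brca1, a ubiquitin ligase that promotes end trimming, was at 5.78 in Ctrl Basal, 6.16 in AMKO Basal, 7.04 in Ctrl 5FU and 7.32 in AMKO 5FU. Both 5FU values stood above both Basal values, a 2.40-fold difference in Ctrl and 2.23-fold in AMKO. Bard1, the obligate partner of BRCA1, followed it with 5.59, 5.91, 6.74 and 6.86 in the same array order, or 2.22-fold and 1.93-fold. Both of its 5FU values again stood above both Basal values.

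Rad51ap1, which promotes strand invasion, had values of 6.57 in Ctrl Basal, 7.10 in AMKO Basal, 8.17 in Ctrl 5FU and 8.16 in AMKO 5FU. The genotypes were 0.53 apart at Basal and 0.01 apart after 5FU, so its 5FU difference was 1.60 in Ctrl and 1.06 in AMKO. Brip1, a helicase that binds BRCA1, had the largest difference of any member in Ctrl, 1.65, with 5.96 at Basal and 7.61 after 5FU. In AMKO it went from 6.41 to 7.16, a difference of 0.75. Brca2, which binds single-stranded DNA at the break, had differences of 0.61 and 0.70. Palb2, which bridges BRCA1 and BRCA2, had the smallest difference here, with 6.76, 7.07, 7.01 and 7.15 in Ctrl Basal, AMKO Basal, Ctrl 5FU and AMKO 5FU, and its Basal and 5FU values overlapped.

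The genes of the BCDX2 and CX3 complexes, which assist strand exchange, did not share 1 pattern. Rad51b was at 6.78 in Ctrl Basal, 6.85 in AMKO Basal, 7.92 in Ctrl 5FU and 7.84 in AMKO 5FU, a 2.20-fold and 1.99-fold difference. The Basal values of the genotypes lay close together, as did the 5FU values. Rad51c differed by 0.13 and 0.14 and Xrcc3 by 0.39 and 0.02 in Ctrl and AMKO. Rad51d had the lowest difference of the 4, with 8.24 and 8.08 at Basal and 8.01 and 7.93 after 5FU in Ctrl and AMKO, and was lower in both genotypes.

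Exo1, Blm and Rad54l, which act on DNA ends and on joined molecules, were higher in both genotypes. Exo1, the nuclease of long-range end trimming, had 7.65 in Ctrl Basal, 7.81 in AMKO Basal, 8.87 in Ctrl 5FU and 9.08 in AMKO 5FU, with differences of 1.22 and 1.27. It had the lowest p of all members in the fit given below. Blm, the helicase mutated in Bloom syndrome, was at 8.32, 8.33, 9.27 and 9.45, or 0.95 higher in Ctrl and 1.12 higher in AMKO. Rad54l, a DNA translocase of homologous recombination, had the smallest differences of the 3, with 6.58 and 6.53 at Basal and 6.95 and 7.31 after 5FU.

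The MRN complex had smaller differences, with medians of 0.18 in Ctrl and 0.51 in AMKO. Nbn, the subunit that recruits ATM, was at 8.53 in Ctrl Basal, 8.52 in AMKO Basal, 8.91 in Ctrl 5FU and 9.18 in AMKO 5FU. Rad50, the ATPase that tethers ends, was at 8.63, 8.41, 8.73 and 8.75 in the same order, differences of 0.10 and 0.34. The nuclease gene Mre11a lay between them, with differences of 0.18 and 0.51. None of the 3 was 2-fold higher.

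The Fanconi core complex split. Fancb and Fancm were higher in both genotypes, and Fance and Fancg were lower in both. Fancf and Fancl were higher in AMKO and nearly unchanged in Ctrl. Fancc, under the floor on 3 of the 4 arrays, had differences of -0.17 and -0.25 with no direction read. The median over the 7 genes measured was 0.03 in Ctrl and 0.58 in AMKO. Fancb, a scaffold subunit of the core, was at 5.24 in Ctrl Basal, 5.73 in AMKO Basal, 6.02 in Ctrl 5FU and 7.35 in AMKO 5FU. Its AMKO 5FU value stood apart from the other 3, and its 5FU difference was 0.78 in Ctrl and 1.62 in AMKO. Fancm, a DNA translocase that anchors the core on DNA, was higher by 0.89 and 0.62. Fancf and Fancl, the latter the ubiquitin ligase of the core, were higher by 0.04 and 0.03 in Ctrl and by 0.58 and 0.59 in AMKO. After quantile normalization the Ctrl difference of Fancf was -0.026, so no direction is read from it in Ctrl. Fance, the subunit that contacts FANCD2, had the lowest 5FU difference of any member in Ctrl, with 7.98 and 8.08 at Basal and 7.33 and 7.57 after 5FU in Ctrl and AMKO. Fancg, another core subunit, had differences of -0.24 and -0.59, the lowest of any member in AMKO.

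The pair that the core complex marks was higher in both genotypes. Fanci was at 5.91 in Ctrl Basal, 6.68 in AMKO Basal, 7.16 in Ctrl 5FU and 7.47 in AMKO 5FU, or 2.38-fold and 1.73-fold higher after 5FU. Fancd2 was at 6.68, 7.01, 7.67 and 7.67 in the same order. The Basal values of both genes were higher in AMKO than in Ctrl.

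Among the checkpoint genes, the top kinases and their downstream partners differed. Atm was at 8.27 in Ctrl Basal, 8.45 in AMKO Basal, 8.21 in Ctrl 5FU and 8.41 in AMKO 5FU, and Atr at 7.79, 7.74, 7.64 and 8.01, so the Basal and 5FU values of both kinases overlapped. A second probe set of Atr lay under the floor on all 4 arrays. Chek1, the effector kinase of ATR, had 5FU differences of 0.86 for Ctrl and 0.79 for AMKO. Clspn, the adaptor that ATR needs to act on CHK1, was at 6.04, 6.40, 7.26 and 7.27, with differences of 1.22 and 0.87. Topbp1, an activator of ATR, was higher by 0.43 and 0.21, but its AMKO difference was 0.018 after quantile normalization.

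Chek2, the effector kinase of ATM, was at 6.79 in Ctrl Basal, 6.31 in AMKO Basal, 7.31 in Ctrl 5FU and 7.86 in AMKO 5FU. AMKO held both its lowest and its highest value, and the 5FU difference was 0.52 in Ctrl and 1.55 in AMKO, or 1.43-fold and 2.93-fold.

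**Figure D2:**
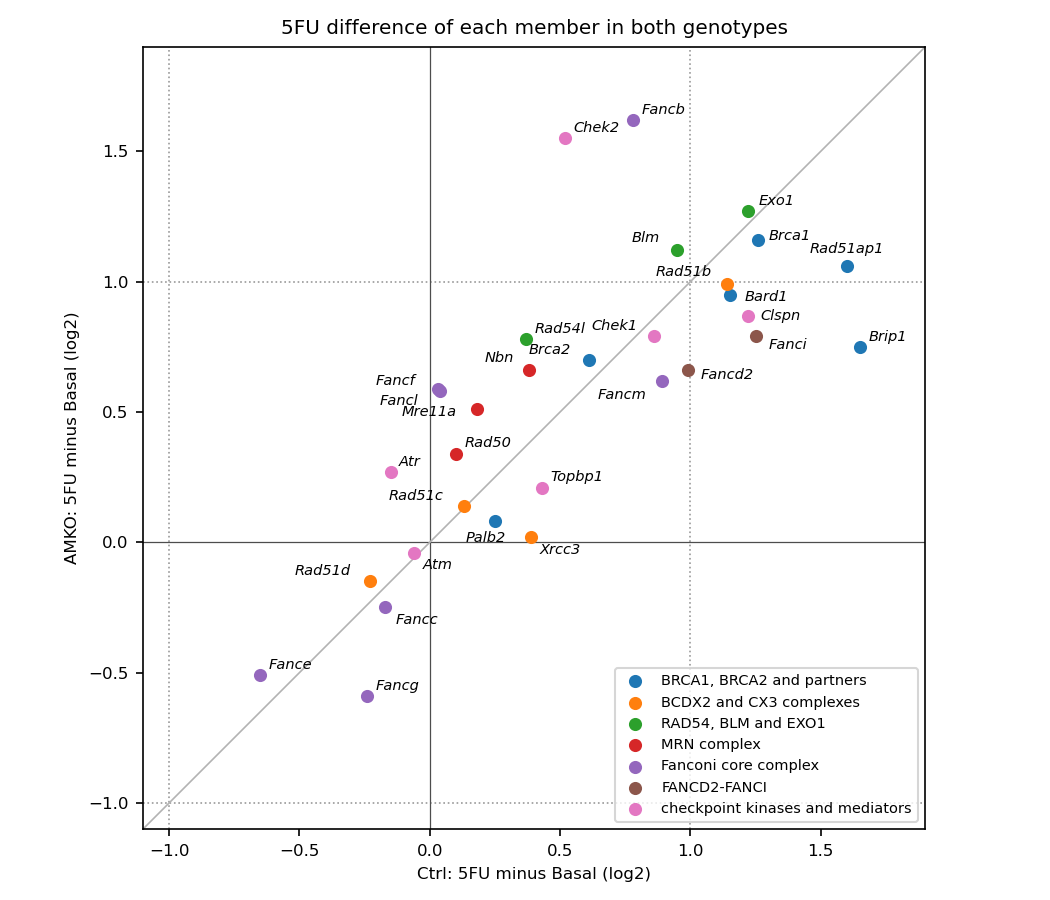
Difference of 5FU minus Basal on the log2 scale for each member, in Ctrl on the horizontal axis and in AMKO on the vertical axis, coloured by subgroup; dotted lines mark 2-fold and the diagonal marks equal differences. Brca1, Rad51ap1 and Exo1 lie past 2-fold in both genotypes, Chek2 and Fancb lie above the diagonal at 1.55 and 1.62 in AMKO, and Brip1 lies below it at 1.65 in Ctrl.

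The 5FU effect averaged over the genotypes was fitted with limma on all 14061 kept genes, with genotype as an additive term. This fit has 1 residual degree of freedom and takes the difference between the genotypes' 5FU differences as error. No member passed after Benjamini-Hochberg adjustment over all genes, and 0% of all genes did. Among the members, the lowest adjusted p in this limma fit was 0.0697, for Exo1, whose averaged difference was 1.25 with a standard error of 0.13. Genes outside the members, Gen1 and Kif20a among them, had the same adjusted p with a lower unadjusted p. The adjusted p in this limma fit was 0.0732 for Brca1 (1.21, standard error 0.15), Rad51ap1 (1.33, 0.20), Rad51b (1.07, 0.14) and Blm (1.04, 0.13). At an unadjusted p under 0.05 there were 17 members higher and 1 lower, Fance, against 15.7% and 12.1% of all genes. By subgroup, these 18 were 5 of 6 BRCA1, BRCA2 and partner genes, 3 of 3 of Exo1, Blm and Rad54l, 2 of 2 of the FANCD2-FANCI pair, 3 of 6 checkpoint genes, 3 of 7 core complex genes, 1 of 3 MRN genes and 1 of 4 BCDX2 and CX3 genes. With robust estimation 9 members passed the adjusted threshold, where 9.35% of all genes did. These were Bard1, Blm, Brca1, Chek1, Clspn, Exo1, Fanci, Rad51ap1 and Rad51b, all higher after 5FU. After quantile normalization 7 passed, where 6.74% of all genes did, and with a floor at the 75th percentile 6 of 24, where 15.7% did.

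Further recombination and checkpoint genes had 5FU medians near those of the members in Ctrl. In AMKO the recombination median was lower, and the end joining medians were lower in both genotypes. Of all kept genes, 5.02% in Ctrl and 4.69% in AMKO were 2-fold higher, and 4.46% and 3.55% were 2-fold lower. Of 47 further recombination and Fanconi genes, 5 reached 2-fold higher in Ctrl and 8 in AMKO, none was 2-fold lower, and the medians were 0.42 and 0.45. Gen1, a nuclease that cuts joined molecules, was the highest, by 1.88 and 2.11, and Usp1, which removes ubiquitin from FANCD2, was higher by 0.78 and 1.51. Of 22 further checkpoint genes, 6 in each genotype were 2-fold higher and none lower, with medians of 0.47 and 0.68. Tipin, part of the fork protection complex, was higher by 1.55 and 2.15, and H2ax, the histone phosphorylated at breaks, by 1.40 and 1.07. Of 13 end joining and break or nick sealing genes, 0 in Ctrl and 1 in AMKO were 2-fold higher (Xrcc5, 0.11 and 1.01), with medians of 0.21 and 0.39. No gene of these 3 lists passed the adjusted threshold in the additive limma fit. At an unadjusted p under 0.05 in that limma fit, 22 recombination and Fanconi genes, 13 checkpoint genes and 4 end joining genes were higher. Lower at that p were 2, 0 and 0, and of all genes 15.7% were higher and 12.1% lower.

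Genes of proliferation were higher after 5FU too. The medians were 1.0 in Ctrl and 0.98 in AMKO over 19 S phase genes, and 1.5 and 1.36 over 19 genes of G2 and mitosis, of which 19 and 18 were 2-fold higher. Rrm2, a subunit of the enzyme that makes deoxyribonucleotides, was higher by 1.59 and 1.77, and the mitotic kinesin Kif20a by 1.94 and 1.93. The member medians of 0.43 and 0.66 lay under those of both proliferation lists. The medians of Exo1, Blm and Rad54l (0.95 and 1.12) came close to the S phase values. So did those of the BRCA1, BRCA2 and partner genes (1.21 and 0.85) and the FANCD2-FANCI pair (1.12 and 0.73). The part of proliferation in the members' differences was not tested.

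**Figure D3:**
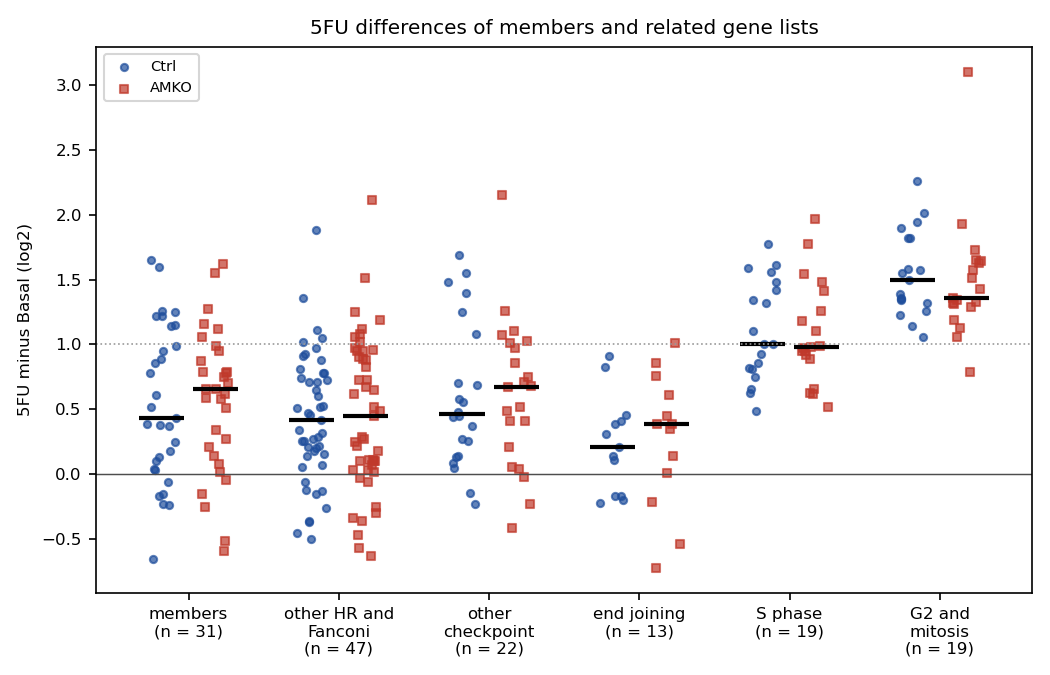
Difference of 5FU minus Basal on the log2 scale for every kept gene of the members and of 5 related lists, with blue circles for Ctrl, red squares for AMKO, black bars for the medians, a dotted line at 2-fold, and sideways scatter only for legibility. The members (medians 0.43 and 0.66) lie near the other checkpoint genes (0.47 and 0.68) and, in Ctrl, near the other recombination genes (0.42 and 0.45). They lie under the S phase (1.0 and 0.98) and G2 and mitosis genes (1.5 and 1.36).

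Promoter sequences were set beside the differences because many members were higher together, and E2F factors are known to drive genes of replication. RefSeq windows of 300 bases (250 before to 50 after a transcript start, GRCm38.p6) were available for 27 of the 34 members, in 30 windows. The windows shown belong to the highest and lowest members that had one. Capitals mark an E2F-type motif or a CCAAT box, the binding element of NF-Y, on either strand. Brca1 lies at chr11:101551906-101552205 on the minus strand, Rad51ap1 at chr6:126939538-126939837 on the minus strand and Fance at chr17:28313280-28313579 on the plus strand, each printed in the direction of its gene.
Brca1: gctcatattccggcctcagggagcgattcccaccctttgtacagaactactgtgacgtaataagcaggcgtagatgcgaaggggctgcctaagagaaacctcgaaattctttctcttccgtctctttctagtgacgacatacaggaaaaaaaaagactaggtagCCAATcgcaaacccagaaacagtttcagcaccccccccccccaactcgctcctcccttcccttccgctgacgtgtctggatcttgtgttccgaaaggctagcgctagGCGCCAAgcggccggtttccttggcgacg
Rad51ap1: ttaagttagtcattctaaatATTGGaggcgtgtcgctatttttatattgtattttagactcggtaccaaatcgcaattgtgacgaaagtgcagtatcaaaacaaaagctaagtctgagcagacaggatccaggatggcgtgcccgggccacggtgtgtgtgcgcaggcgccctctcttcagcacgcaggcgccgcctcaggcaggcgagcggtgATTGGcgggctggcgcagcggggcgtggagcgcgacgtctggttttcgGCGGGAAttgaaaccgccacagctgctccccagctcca
Fance: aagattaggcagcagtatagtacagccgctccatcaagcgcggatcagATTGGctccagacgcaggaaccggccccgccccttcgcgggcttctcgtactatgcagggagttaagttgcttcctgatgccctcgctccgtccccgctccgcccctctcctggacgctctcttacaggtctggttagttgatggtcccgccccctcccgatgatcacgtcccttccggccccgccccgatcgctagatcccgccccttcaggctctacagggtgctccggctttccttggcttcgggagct

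The E2F-type motif searched was TTCCCGC or TTCGCGC or TTGCCGC or TTGGCGC on both strands. Brca1 and Rad51ap1 each held 1 match, 22 and 13 bases into the transcript. Fance held no such letters and 1 CCAAT box. Over the members, 60% of the 30 windows held the E2F-type motif, against 9.57% of all 32851 windows and 15.3% of the windows of kept genes. CCAAT stood in 66.7% of the member windows, against 37.4% of all and 37% of those of kept genes, and in 1 member window a CCAAT box overlapped an E2F-type match. The cell cycle element TTTGAA or TTCGAA stood in 10%, against 19.2% and 13.9%.

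The 17 measured members with an E2F-type match had median 5FU differences of 0.86 in Ctrl and 0.79 in AMKO, and the 9 without one had 0.18 and 0.27. Over all kept genes the medians were 0.08 and 0.13 with a match and 0.00 and 0.02 without. The groups overlapped: Rad51b had no match and differences of 1.14 and 0.99, while Fancg and Atm had a match and were not higher. Rad51c had a match and differences of 0.13 and 0.14, under both medians of the group without one. These 7 letters were settled on after matches to 6 motif forms had been seen, and the split depended on the letters. With a T required before them, 7 members had a match, and their medians of 0.52 and 0.70 stood against 0.39 and 0.62 in the other 19. Without the first T, 22 had a match, with medians of 0.57 and 0.73 against 0.14 and 0.43 in the other 4. CATG, the sixth form, stood in 46.7% of the member windows, against 61.1% of all and 50.4% of those of kept genes. Other letters divided the members about as strongly. The 14 members without CATG had medians of 0.87 and 0.83 and the 12 with it 0.19 and 0.43, and the 3 with the cell cycle element had 1.14 and 0.95 against 0.43 and 0.62 in the other 23. The CCAAT medians were 0.52 and 0.75 with a match and 0.43 and 0.59 without. Nothing particular to the E2F-type letters is read from the split. A match is a description of the sequence and was not tested as a binding site.

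**Figure D4:**
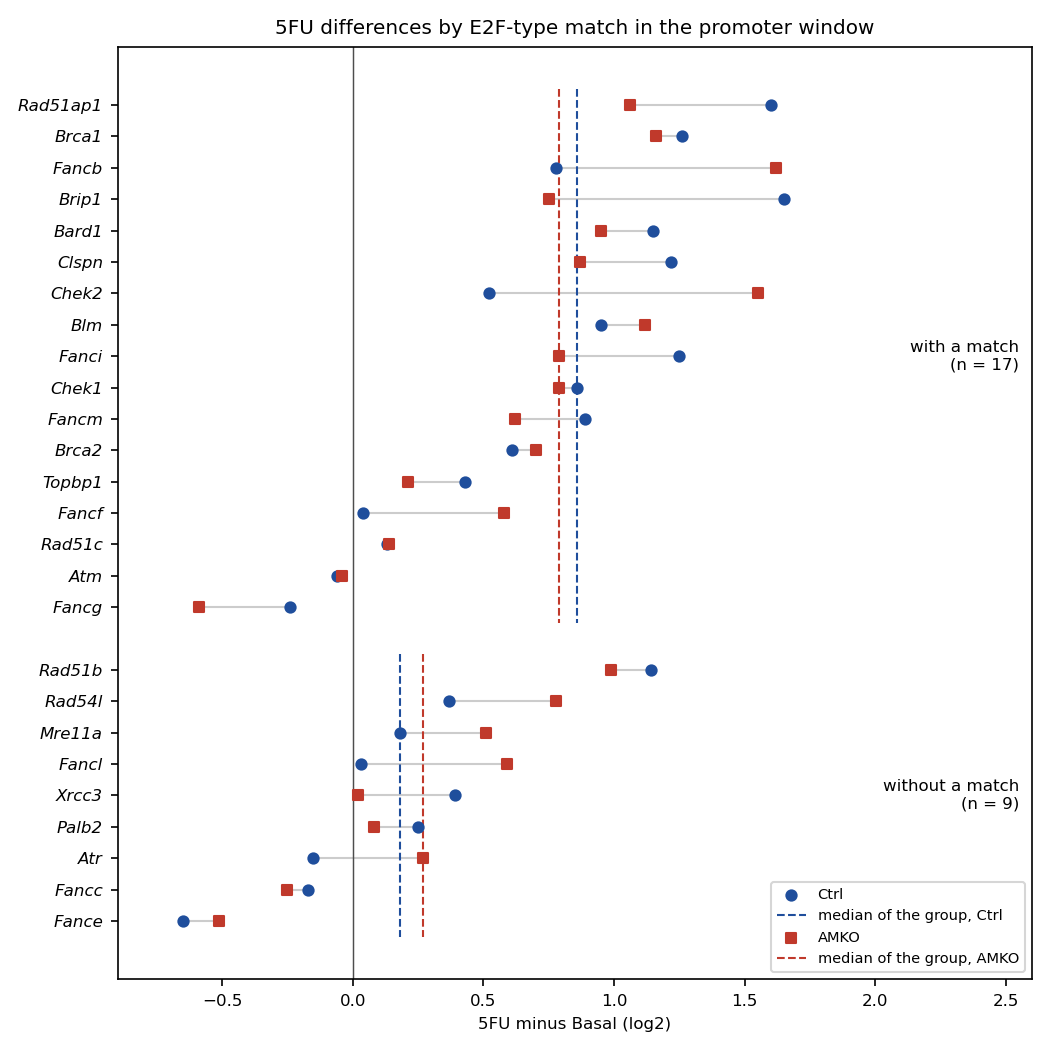
Difference of 5FU minus Basal on the log2 scale in Ctrl (blue circles) and AMKO (red squares) for the 26 measured members with a promoter window, split by the E2F-type motif; dashed lines are the medians of each group. The group with a match has medians of 0.86 and 0.79 and the group without 0.18 and 0.27. Rad51b, Fancg, Atm and Rad51c are among the members against the order. A split by CATG was of like size.

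Whether AMKO and Ctrl cells differed at Basal was read next. Most members were slightly higher in AMKO: 22 of 31, against 49.4% of all kept genes, with a median difference of 0.16 against 0.00. Centring each array on its median gave 19 of 30, against 37% of all genes, with a median of 0.06. No member was 2-fold higher or lower, where 0.228% and 0.697% of all genes were. At 1.5-fold, Fanci (0.77) and Rad51c (0.59) were higher in AMKO, against 2.51% of all genes, and none was lower, against 3.63%. All 6 BRCA1, BRCA2 and partner genes were higher, by 0.12 for Brca2 to 0.53 for Rad51ap1, and they stayed higher for 4 of the 6 at day 8. Of the MRN genes, 3 of 3 were lower at Basal, by 0.01 to 0.24. Chek2 (-0.48) and Fancl (-0.38) were the lowest in AMKO at Basal. The Ctrl Basal array, which enters each of these differences, is the one with the highest mean of skeletal muscle markers. Over the proliferation lists the medians were 0.07 for S phase and 0.01 for G2 and mitosis genes.

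At day 8 the median difference of AMKO minus Ctrl was 0.18 over the members and 0.06 over all kept genes, and 22 of 31 members were higher, against 59% of all genes. Fancb was the single member at least 2-fold higher in AMKO, by 1.33 (2.51-fold), where 0.74% of all genes were, and none was 2-fold lower, where 2.63% were. At 1.5-fold, Fancb and Rad51c (0.60) were higher, against 4.15%, and none was lower, against 5.33%. Rad51c had nearly the same genotype difference at both times, 5.77 against 6.36 at Basal and 5.90 against 6.50 after 5FU, with the AMKO value the higher one each time. Brip1 was the lowest in AMKO at day 8 (-0.45), followed by Fancm (-0.17). Each of these differences uses the Ctrl 5FU array, in which neutrophil, B lineage and monocyte markers were high; neutrophil markers had a median difference of -5.21 and B lineage markers of -2.62 there.

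**Figure D5:**
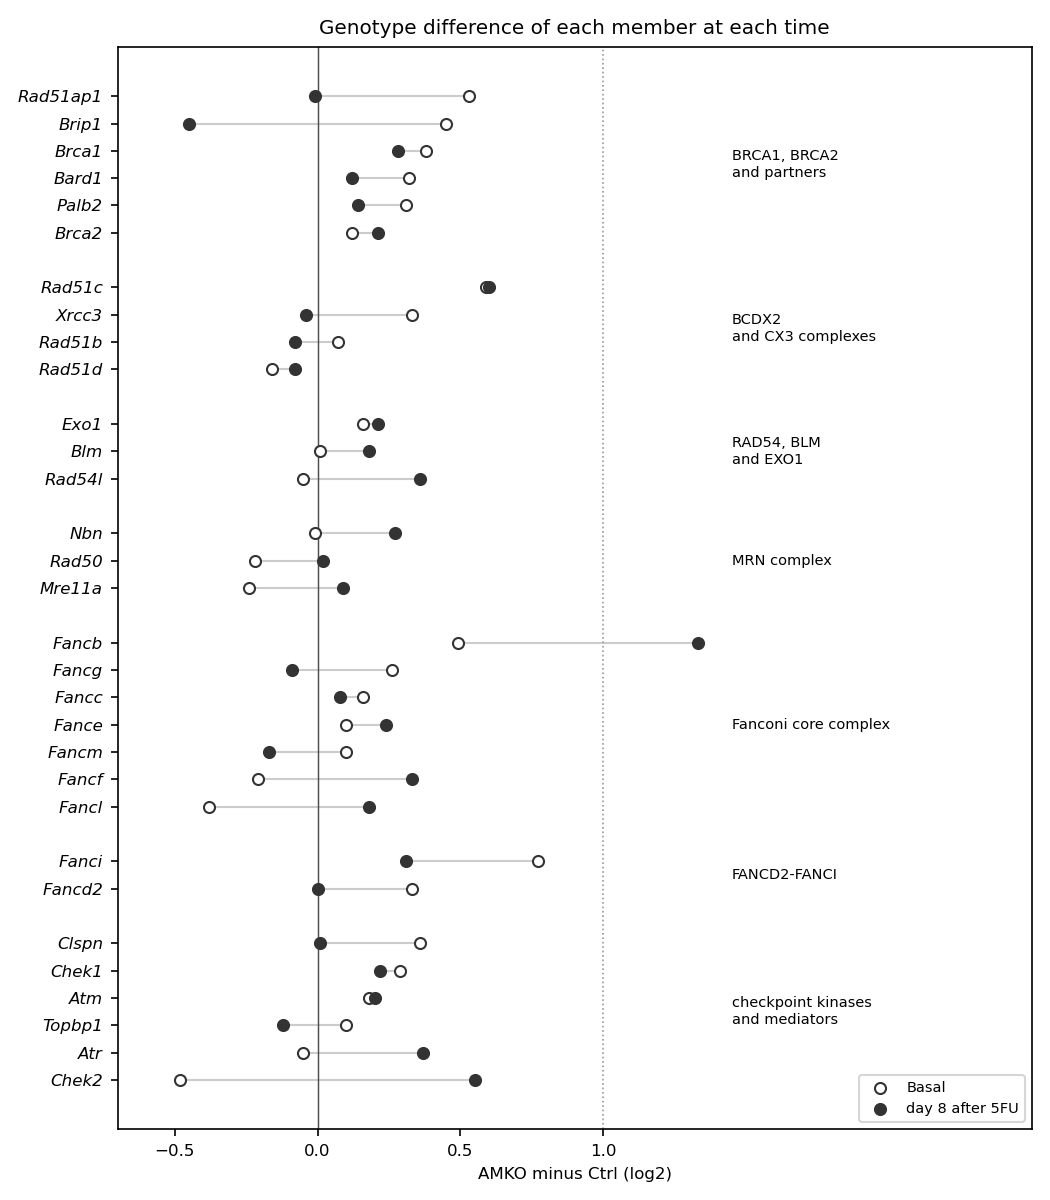
Difference of AMKO minus Ctrl on the log2 scale for each member at Basal (open circles) and at day 8 after 5FU (filled circles), ordered within subgroups by the Basal value; the dotted line marks 2-fold. Fancb at day 8 (1.33) lies past 2-fold, Rad51c shows nearly equal values at both times (0.59 and 0.60), and Brip1 and Chek2 change sign between the times.

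The difference between the 5FU differences (AMKO minus Ctrl) has no test with 1 array per group. Its median over the members was 0.01, and over all kept genes 0.05. Chek2 was the single member at least 2-fold, at 1.03, where 2.57% of all genes lay that far above 0 and 2.94% that far below. Fancb was next at 0.84, and Brip1 was lowest at -0.90. At 1.5-fold these were the 2 members above, against 9.93% of all genes, and the 1 below, against 7.6%. No member was past 3-fold here, where 0.484% of all genes were, or higher by that much in AMKO at day 8, where 0.121% were. By subgroup the medians were -0.40 for the FANCD2-FANCI pair, -0.19 for the BRCA1, BRCA2 and partner genes and 0.28 for the MRN complex. Their Basal medians of AMKO minus Ctrl were 0.55, 0.35 and -0.22, of the opposite sign. The Fanconi core complex had 0.14 with a Basal median of 0.10, of the same sign. Exo1, Blm and Rad54l had 0.17 with 0.01, the checkpoint genes -0.025 with 0.14, and the BCDX2 and CX3 genes -0.07 with 0.20. The Basal arrays enter both values, so these are not separate observations. Across the 31 members, the 5FU differences of both genotypes correlated at 0.75 (Pearson) and 0.81 (Spearman); no array enters both, genes are not independent replicates, and no p is given.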

How the data were processed

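RNA of sorted LSK cells was biotin-labelled and measured on 4 Affymetrix arrays, 1 per group, per the labels' protocols. The authors deposited 1 value per probe set and array, taken as log2 values from their range of 1.99 to 13.43. How background was corrected and arrays normalized: not given in the sources used here. The array medians were 5.43 to 5.55, and no further scaling was applied.

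Of 34472 probe sets, 23521 named 1 gene, 1814 several and 9137 none in the platform annotation; symbols were updated through Entrez identifiers with a RefSeq table of GRCm38.p6. Differences of 1 array from 1 array have no test and are counted at 2-fold and 1.5-fold. The additive fit used lmFit and eBayes with a trend (limma 3.58.1, R 4.3.3; prior degrees of freedom 2.62), two-sided, adjusted by Benjamini-Hochberg over 14061 genes. The code of this fit was tested on simulated data, which cannot show whether its error term suits these unreplicated arrays. With 1 array per group, the p-values do not measure replicate spread. Before the eBayes step, their error rests only on the difference between the genotypes' treatment differences. That error can hold technical spread, a genotype effect on the response and the unlike marker signals of the arrays, which the fit cannot separate.

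The members, lists and motifs were chosen with earlier results of these data known. Values on every array are given for members 2-fold different in any comparison and the highest and lowest of each subgroup; of each other list, up to 4 genes with the largest averaged 5FU difference could be named, and Xist, Ly6a and Kit were named outside that rule. Promoters were those of the 3 highest and the 1 lowest member by the smaller 5FU difference of both genotypes, where a window was given. Alternatives were quantile normalization, median centring, no floor, a higher floor (7.32, the 75th percentile), averaging the probe sets of each gene, sizes of 1.5-fold and 3-fold, limma without trend or robust, and each array left out; the 8-letter and 6-letter motifs were added after seeing the data. The motif forms looked at were the E2F-type one in 8, 7 and 6 letters, CCAAT, the cell cycle element and CATG.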

Additional observations from a re-analysis of the deposited data

Results flagged for a closer look

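Chek2, Brip1 and others had genotype differences of opposite sign at Basal and at day 8, or 5FU differences of opposite sign in Ctrl and AMKO. None of these was tested, since each group is 1 array. The 5FU difference of Atr was -0.15 in Ctrl and 0.27 in AMKO, 0.42 apart. For AMKO minus Ctrl, the day 8 difference minus the Basal one was 1.03 for Chek2 (-0.48 at Basal and 0.55 at day 8) and -0.90 for Brip1 (0.45 and -0.45). It was positive for Fancl (0.56), Fancf (0.54), Atr (0.42), Rad54l (0.41), Mre11a (0.33), Nbn (0.28) and Rad50 (0.24). It was negative for Rad51ap1 (-0.54), Xrcc3 (-0.37), Fancg (-0.35), Fancm (-0.27), Topbp1 (-0.22) and Rad51b (-0.15). All of these use the Ctrl Basal array with its muscle markers and the Ctrl 5FU array with its neutrophil markers, and the part of either in them was not tested.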

How the results depend on the processing

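No paired analysis of replicates was possible with 1 array per group, and genotype is a term of the additive fit. The number of members higher or lower moved with the size asked for. At 1.5-fold, 14 members were higher and 1 lower for 5FU in Ctrl, 18 and 1 for 5FU in AMKO, 2 higher in the genotype comparison at Basal, 2 higher in that at day 8, and 2 above and 1 below in the comparison of the 5FU differences. At 3-fold, 2 members were higher for 5FU in Ctrl, 1 for 5FU in AMKO, 0 in the genotype comparison at day 8 and 0 in that of the 5FU differences, against 2.06%, 0.974%, 0.121% and 0.484% of all genes. Centring each array moved the member median to 0.77 for 5FU in AMKO and to 0.06 for AMKO at Basal, and the floor at the 75th percentile, which kept 24 members, moved the median for 5FU in Ctrl to 0.565. The additive limma fit called 0 members, where 0% of all genes passed, and with centred arrays 0 members, where 1.15% did. It called 7 after quantile normalization (6.74% of all genes), 6 with the floor at the 75th percentile (15.7%) and 9 with robust estimation (9.35%). Fits with each array left out in turn, and treatment as the sole term, leave a single array at Basal or at 5FU. No count of members is read from them. The member median of the difference between 5FU differences, 0.01, became -0.051 after quantile normalization. In AMKO, that setting moved the 5FU difference of Xrcc3 from 0.02 to -0.136, Topbp1 from 0.21 to 0.018 and Blm from 1.12 to 0.958. Exo1 went from 1.27 to 1.117, Nbn from 0.66 to 0.497 and Rad50 from 0.34 to 0.185. Averaging probe sets moved the Ctrl 5FU difference of Atr from -0.15 to -0.305. Its AMKO minus Ctrl difference went from -0.05 to -0.37 at Basal and from 0.37 to 0.12 at day 8. The split by E2F-type match (0.68 in Ctrl and 0.52 in AMKO) became 0.13 and 0.08 with 8 letters and 0.425 and 0.295 with 6. Fancc was under the floor after quantile normalization and after centring. The other 99 comparisons of counts and medians stayed within 1.5 times or 0.1. Signals near the floor, as for Fancb and Fancc, limit their differences.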
